A study of Homo sapiens with 95 samples.

Results

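The aryl hydrocarbon receptor (AhR) module was described here through 4 genes, AHR, ARNT, AHRR and TIPARP, found by their symbols among the 27978 genes listed for every sample. AALE cells, which are bronchial epithelial cells of human origin that were immortalized, came in 8 lines with different genotypic perturbations. Each line was exposed to 4 treatments, and RNA was profiled by sparse full length (SFL) sequencing, in which barcoded samples are pooled and sequenced sparsely along whole transcripts. The CRISPR lines were knockouts of FAT1 and of CDKN2A, with cells that received the Cas9-GFP plasmid and no guide (GFP) as their control. The overexpression lines carried NRF2 (the gene NFE2L2), FGFR1, NRG1 or PIK3CA, with the HcRed reporter vector (HCRED) as their control. Every line received cigarette smoke condensate (CSC, 24 μg/ml), benzo(a)pyrene (BaP, 173 μM), the tobacco nitrosamine NNK (490 μM) or the solvent DMSO, in 24-well plates. The length of exposure and whether a line was a clone or a pool are not given in the sources used here. Each of the 32 combinations had 3 samples, except FGFR1 with CSC, which had 2, for 95 samples in all. The study calls its replicates biological, but what separates them (a culture, a well or a day) is not given in the sources used here, so p-values measure the spread between these samples.

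AhR is a ligand-activated transcription factor of the bHLH-PAS family, held in the cytosol by chaperones such as HSP90 and p23 (PTGES3) until a ligand such as BaP, a polycyclic aromatic hydrocarbon of tobacco smoke, binds it. It then moves to the nucleus, pairs with ARNT and binds DNA elements around the core GCGTG near genes such as CYP1A1 and CYP1B1, whose enzymes oxidize those hydrocarbons. AHRR, which pairs with ARNT and represses AhR-driven transcription, and TIPARP, a mono-ADP-ribosyltransferase that modifies AhR and lowers its activity, are themselves AhR targets and close a negative feedback. In airway epithelium this system is known as a sensor of smoke.

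The samples held 287446 to 2116383 counted reads, with 694898 to 1528287 in the DMSO samples, 485031 to 2116383 with CSC, 287446 to 1641129 with BaP and 338978 to 1625237 with NNK. Levels are given in CPM, the usual scaling of counts to library depth, after TMM normalization. The 6 perturbed genes moved as their labels state, with a lower median in the knockout line than in its control for FAT1 and CDKN2A and a higher one for the 4 overexpressed genes. All 6 basal epithelial markers (KRT5, KRT14, KRT17, TP63, EPCAM and CDH1) had reads in every sample. Among 6 markers of other cell types, PTPRC, PECAM1 and COL3A1 had 7, 21 and 3 reads over all 95 samples. The others were detected more widely, COL1A1 with 2299 reads in 95 samples, CD68 with 1397 in 94 and ACTA2 with 232 in 82. The marker sums that follow are in CPM without TMM normalization, unlike the levels of the members. The summed level of the 6 basal markers lay between 4048 and 9127 CPM with DMSO, 3377 and 7091 with CSC, 3513 and 7689 with BaP and 4445 and 10896 with NNK. That of the 6 other markers, most of it COL1A1 and CD68, lay between 16.0 and 47.8 CPM with DMSO, 44.2 and 73.8 with CSC, 21.0 and 80.6 with BaP and 19.2 and 60.4 with NNK. These levels moved with treatment alongside the genes below, and their part in those results was not tested. In such bulk RNA, fewer cells of a kind and less RNA per cell cannot be told apart.

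The reads of a gene are counted over its transcripts, so the places where transcription starts are shown first. The short core element that AhR and ARNT bind was looked for there, and sequence further away was not searched. On GRCh37, the build of the files (hg19), the GENCODE models place AHR at chr7:16955983-17385776 on the plus strand, ARNT at chr1:150782189-150849184 on the minus strand, AHRR at chr5:321829-438406 on the plus strand and TIPARP at chr3:156391024-156424559 on the plus strand. RefSeq start sites were taken on GRCh38, as windows of 300 bases that run from 250 bases before a start through the first 50 bases of the transcript. The core GCGTG, or its reverse complement CACGC, was in 36.5% of all 35116 such windows, and at least 2 matches were in 12.7%. Below are the AHRR windows at chr5:321464-321763 and chr5:322360-322659, the first of the 3 TIPARP windows at chr3:156674340-156674639, the AHR window at chr7:17298402-17298701 and the ARNT window at chr1:150876550-150876849 on the minus strand, each written 5′ to 3′ on the strand of its gene with core matches in capitals.
AHRR start 1: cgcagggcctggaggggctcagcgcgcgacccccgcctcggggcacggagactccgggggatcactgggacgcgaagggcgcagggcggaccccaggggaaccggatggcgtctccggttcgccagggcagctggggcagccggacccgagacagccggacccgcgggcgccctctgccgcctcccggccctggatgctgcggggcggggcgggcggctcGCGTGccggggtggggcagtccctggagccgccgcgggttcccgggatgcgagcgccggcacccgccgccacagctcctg
AHRR start 2: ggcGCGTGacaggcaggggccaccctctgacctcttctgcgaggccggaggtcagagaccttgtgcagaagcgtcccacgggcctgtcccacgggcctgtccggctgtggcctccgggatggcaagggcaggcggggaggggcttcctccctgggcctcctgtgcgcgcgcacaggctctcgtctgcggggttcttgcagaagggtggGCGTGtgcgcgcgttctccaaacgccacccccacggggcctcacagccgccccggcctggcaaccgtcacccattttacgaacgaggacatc
TIPARP start 1: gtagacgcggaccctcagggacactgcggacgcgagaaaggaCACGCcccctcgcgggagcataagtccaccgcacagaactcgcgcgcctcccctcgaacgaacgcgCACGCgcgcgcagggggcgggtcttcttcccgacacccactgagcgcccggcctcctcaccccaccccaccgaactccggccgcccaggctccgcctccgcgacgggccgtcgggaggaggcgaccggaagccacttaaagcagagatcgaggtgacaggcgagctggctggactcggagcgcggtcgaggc
AHR: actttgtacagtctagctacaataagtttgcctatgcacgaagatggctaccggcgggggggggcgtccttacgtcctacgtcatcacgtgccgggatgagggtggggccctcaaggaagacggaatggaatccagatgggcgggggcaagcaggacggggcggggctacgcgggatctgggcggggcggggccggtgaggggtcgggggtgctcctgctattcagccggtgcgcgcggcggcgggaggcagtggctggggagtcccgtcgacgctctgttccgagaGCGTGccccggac
ARNT: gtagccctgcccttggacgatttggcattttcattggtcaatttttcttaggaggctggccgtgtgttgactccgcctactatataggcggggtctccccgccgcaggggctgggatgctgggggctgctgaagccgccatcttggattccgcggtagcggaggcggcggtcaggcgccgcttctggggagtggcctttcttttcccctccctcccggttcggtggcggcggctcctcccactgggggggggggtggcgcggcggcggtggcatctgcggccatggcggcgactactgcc
The first AHRR window had 1 core match, which was also the only match among the members to the longer form TNGCGTG, held by 5.51% of all windows. Its second window had 2 matches. The first TIPARP window had 2 matches, both read on the opposite strand, and the other two TIPARP windows had none. The AHR window had 1 match, which lay within the transcript, and the ARNT window had none. The CYP1A1 window, taken in the same way, had 1 core match and 0 of the longer form. A match is only a run of letters, and no binding was measured in these samples.

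AHR, the receptor itself, was present at similar levels under all 4 treatments. Over the 8 lines its lowest, median and highest levels were 157, 188 and 243 CPM with DMSO, 136, 184 and 228 with CSC, 139, 179 and 229.8 with BaP and 144, 183 and 243 with NNK, so the 4 groups overlapped over nearly all of their ranges. In a limma-voom model with genotype, the log2 fold change from DMSO was -0.06 (95% interval -0.14 to 0.02) with CSC, -0.04 (-0.12 to 0.04) with BaP and -0.04 (-0.12 to 0.04) with NNK, with adjusted p = 0.206, 0.411 and 0.473. None of these intervals reached further than 0.14 from 0 on the log2 scale. After GC content and exon length were corrected for, the estimates turned to 0.20, 0.20 and 0.19 and were called higher, in fits that called 35.0%, 26.8% and 19.2% of genes. The median of all genes was also higher in these fits, at 0.05, 0.05 and 0.04, against 0.003, 0.012 and 0.001 without the correction. AHR has a GC content of 40.8%, against a median of 47.9% over all genes.

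ARNT, the DNA-binding partner, was likewise close to level. It stood at 57.1, 76.8 and 100.5 CPM (lowest, median and highest) with DMSO, 53.4, 73.1 and 108 with CSC, 48.6, 73.2 and 115 with BaP and 50.6, 75.9 and 98.9 with NNK. The log2 fold changes were -0.05 (-0.16 to 0.06), -0.04 (-0.15 to 0.07) and -0.04 (-0.15 to 0.08) with CSC, BaP and NNK, with adjusted p = 0.426, 0.543 and 0.612 by limma. The groups overlapped, and no difference beyond 0.16 on the log2 scale lay within these intervals.

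**Figure D1:**
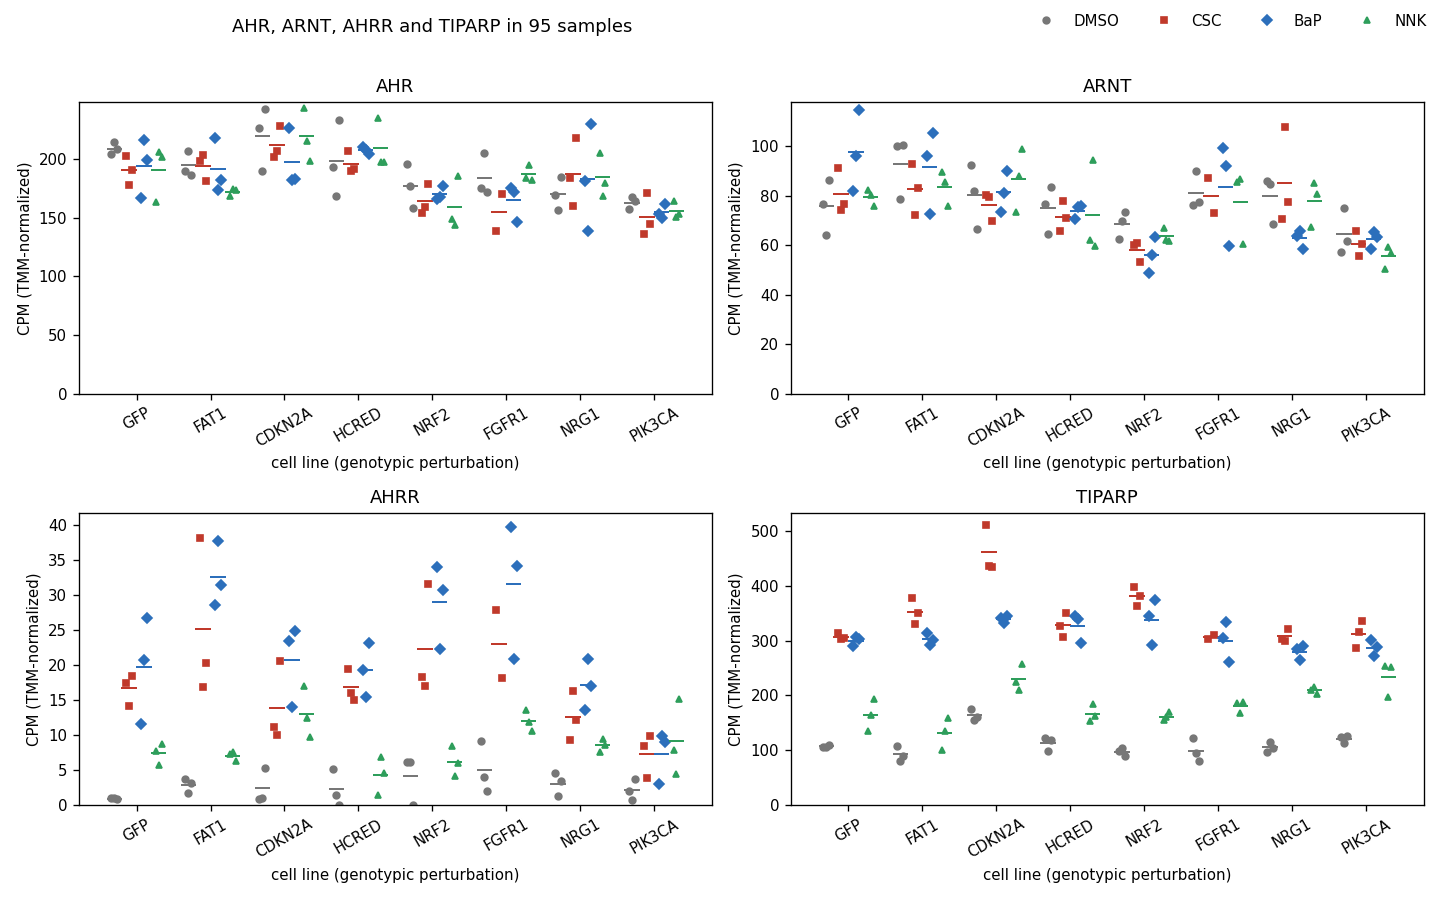
Level of AHR, ARNT, AHRR and TIPARP in each of the 95 samples (CPM after TMM normalization, linear axes from 0), with 1 point per sample, grouped by line along the horizontal axis and by treatment in colour and marker, and short lines at the group means. TIPARP and AHRR points for CSC and BaP stand above those for DMSO in nearly every line, while AHR and ARNT points of the 4 treatments lie among each other.

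AHRR, the repressor, had few reads with DMSO and rose with each chemical. With DMSO it had 0 to 10 reads per sample and 72 reads over 24 samples, and 15 of these samples had 3 reads or fewer, the depth at which a level cannot be told from a count of 0 (1.42 to 10.4 CPM, depending on the sample). Its lowest, median and highest levels were 0, 1.99 and 9.18 CPM with DMSO, 3.8, 16.8 and 38.1 with CSC, 3.03, 21.5 and 39.7 with BaP and 1.41, 7.81 and 17.0 with NNK. The lowest CSC and BaP samples lay below the highest DMSO sample. With NNK the overlap was broad, since its median also lay below the highest DMSO sample. The log2 fold change was 2.69 ± 0.21 (SE) with CSC, 2.94 ± 0.21 with BaP and 1.68 ± 0.23 with NNK, or 6.44-, 7.69- and 3.21-fold, with limma adjusted p = 1.14e-22, 1.2e-25 and 5.08e-10.

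TIPARP, the mono-ADP-ribosyltransferase, was well detected in every sample and rose with each chemical. Its lowest, median and highest levels were 80.3, 107 and 176 CPM with DMSO, 287, 327 and 511 with CSC, 261, 302 and 374 with BaP and 100.4, 186 and 257 with NNK. Every CSC and every BaP sample of any line therefore lay above every DMSO sample, while NNK samples overlapped those with DMSO. The log2 fold change was 1.61 ± 0.05 (SE) with CSC, 1.48 ± 0.05 with BaP and 0.73 ± 0.06 with NNK, or 3.06-, 2.78- and 1.66-fold, with limma adjusted p = 2.12e-59, 4.7e-54 and 1.85e-22. Thus 2 of the 4 members were called in each of these comparisons, all higher, where the share of all tested genes called in either direction was 55.1% with CSC, 51.0% with BaP and 51.8% with NNK. With such shares a call alone sets no gene apart, and the 3 comparisons share the same DMSO samples.

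Per kilobase of exon, levels of different genes were set side by side. The exon lengths came from GENCODE models, while the reads were counted in RefSeq genes, whose lengths can differ. The ranking is therefore approximate. With DMSO the medians were 23.4 CPM per kb for AHR, 22.3 for TIPARP, 11.9 for ARNT and 0.210 for AHRR. With CSC, TIPARP stood at 68.2 CPM per kb, AHR at 22.9, ARNT at 11.3 and AHRR at 1.77. BaP gave 62.9 for TIPARP, 22.2 for AHR, 11.4 for ARNT and 2.27 for AHRR, and NNK gave 38.7, 22.7, 11.8 and 0.824. TIPARP thus went from a level near that of AHR to the highest of the 4, while AHRR remained the lowest on this scale under every treatment.

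The 3 chemicals were compared with each other over all lines at the single dose of each, and these doses differ, so the comparisons are of exposures and not of potencies. TIPARP differed by 0.13 (95% interval 0.03 to 0.24) on the log2 scale between CSC and BaP, which did not pass the threshold (adjusted p = 0.0636), although 8 of 20 alternative settings called it. AHRR differed by -0.26 (-0.68 to 0.16) between CSC and BaP, with adjusted p = 0.459. No member was called in this comparison, in which 16.5% of genes were. NNK gave lower levels of both feedback genes than the other chemicals. TIPARP was 1.84-fold higher with CSC than with NNK (log2 0.88 ± 0.06 SE, adjusted p = 6.36e-30), and AHRR was 2.0-fold higher (1.0 ± 0.23, adjusted p = 0.000252), where 23.7% of genes were called. Between BaP and NNK, TIPARP was 1.68-fold higher with BaP (0.75 ± 0.06, adjusted p = 1.38e-23) and AHRR 2.39-fold higher (1.26 ± 0.22, adjusted p = 5.34e-06), where 11.8% of genes were called. AHR and ARNT were called in none of the 3 limma comparisons between chemicals. The order of the group means was the same within lines, with CSC above BaP, BaP above NNK and NNK above DMSO for TIPARP in 8 of 8 lines. In HCRED cells, though, the fitted TIPARP change from DMSO was larger with BaP (1.55 against 1.53 with CSC). In FGFR1 cells the fitted TIPARP changes with CSC and with BaP were both 1.64. For AHRR, BaP was above CSC in 7 of 8 lines, while in PIK3CA cells the means were about equal (7.32 CPM with BaP and 7.31 with CSC) and the fitted log2 fold change from DMSO was larger with CSC (1.98 against 1.74). AHRR was also higher with BaP than with NNK in 7 of 8 lines, all but PIK3CA, and higher with NNK than with DMSO in 8 of 8.

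Within lines, TIPARP was tested in 3 samples against 3 (2 against 3 for CSC in FGFR1 cells) and was called higher in 8 of 8 lines with CSC, with BaP and with NNK. In the GFP control line it was 105, 107 and 109.9 CPM with DMSO, 303, 305 and 314 with CSC, 290.1, 303 and 307 with BaP and 135, 164 and 193 with NNK. No chemical-treated sample fell within the DMSO range, and the log2 fold changes (± SE) were 1.5 ± 0.10 with CSC, 1.48 ± 0.11 with BaP and 0.56 ± 0.14 with NNK (adjusted p = 9.24e-21, 3.25e-15 and 0.00161), where 25.0%, 11.0% and 18.2% of genes were called with CSC, BaP and NNK. FAT1 knockout cells had the lowest mean TIPARP level with DMSO, at 80.3, 90.1 and 108 CPM with DMSO, 329.8, 350.2 and 378 with CSC, 291, 301 and 314 with BaP and 100.4, 135 and 158 with NNK. CSC and BaP samples stood apart from DMSO, and the lowest NNK sample lay within the DMSO range, with changes of 1.93 ± 0.11 with CSC, 1.71 ± 0.12 with BaP and 0.52 ± 0.14 with NNK (adjusted p = 3.1e-33, 3.27e-17 and 0.00813, genes called 12.7%, 15.1% and 10.2%). The NNK call in FAT1 cells depended on single samples and was lost without DMSO replicate 2 (0.41, adjusted p = 0.0898), without NNK replicate 3 (0.38, adjusted p = 0.150) or under the DESeq2 Wald test (0.52, adjusted p = 0.141).

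The CDKN2A knockout line had the highest mean TIPARP level of any line with DMSO, CSC and BaP. It measured 156, 160.4 and 176 CPM with DMSO, 435, 437 and 511 with CSC, 333, 341 and 345 with BaP and 209, 224 and 257 with NNK, with no overlap between DMSO and any chemical. Its log2 fold changes were 1.5 ± 0.09 with CSC, 1.08 ± 0.09 with BaP and 0.52 ± 0.10 with NNK (adjusted p = 8.29e-36, 8.29e-19 and 0.000158, genes called 11.2%, 18.6% and 5.42%), and the BaP estimate was the smallest of the 8 lines. In the HCRED control line TIPARP was 97.7, 118 and 122 CPM with DMSO, 306, 327 and 350.2 with CSC, 295, 339.7 and 345 with BaP and 153, 163 and 185 with NNK. Here too the chemical-treated samples all lay above those with DMSO, by 1.53 ± 0.11 with CSC, 1.55 ± 0.12 with BaP and 0.57 ± 0.13 with NNK (adjusted p = 1.74e-20, 2.98e-27 and 0.00105, genes called 23.8%, 4.72% and 16.4%).

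Among the overexpression lines, NRF2 cells had the largest TIPARP estimates with CSC and BaP. Their samples held 88.7, 98.5 and 104 CPM with DMSO, 364, 381 and 398 with CSC, 291, 345 and 374 with BaP and 154, 160.1 and 169 with NNK. The groups did not overlap with DMSO, and the changes were 2.0 ± 0.11 with CSC, 1.81 ± 0.12 with BaP and 0.75 ± 0.13 with NNK (adjusted p = 2.29e-30, 6.41e-21 and 7.08e-05, genes called 9.10%, 8.51% and 6.90%). FGFR1 cells held 80.4, 95.1 and 122 CPM with DMSO, 303 and 310.5 with CSC, 261, 304 and 334 with BaP and 167, 186 and 189 with NNK. All FGFR1 samples with a chemical were above those with DMSO, by 1.64 ± 0.12 with CSC, 1.64 ± 0.13 with BaP and 0.89 ± 0.13 with NNK (adjusted p = 8.53e-23, 3.97e-15 and 3.29e-06, genes called 11.7%, 5.43% and 7.84%). NRG1 cells held 97.3, 104 and 114 CPM with DMSO, 299.8, 303 and 321 with CSC, 265, 285 and 290.0 with BaP and 202, 210.2 and 214 with NNK. They had the largest NNK estimate, with changes of 1.59 ± 0.11 with CSC, 1.43 ± 0.13 with BaP and 1.0 ± 0.12 with NNK (adjusted p = 4.09e-25, 2.97e-11 and 6.87e-13, genes called 13.9%, 7.81% and 6.43%). PIK3CA cells held 112, 124 and 126 CPM with DMSO, 287, 315 and 336 with CSC, 272, 288 and 300.3 with BaP and 197, 251 and 253 with NNK. They had the smallest CSC estimate of the 8 lines and the highest NNK mean, with changes of 1.41 ± 0.10 with CSC, 1.29 ± 0.10 with BaP and 0.94 ± 0.12 with NNK (adjusted p = 2.01e-19, 5.41e-17 and 3.3e-09, genes called 22.6%, 10.9% and 9.74%) and no overlap with DMSO.

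**Figure D2:**
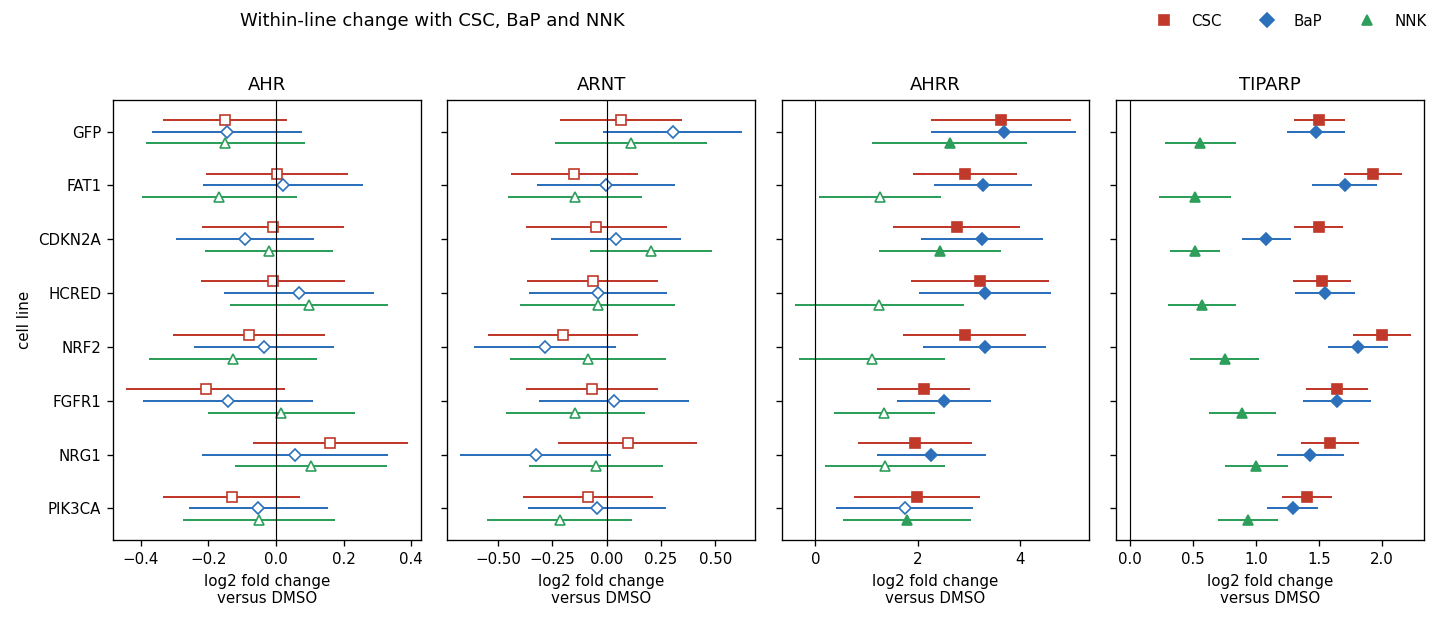
Log2 fold change from DMSO (horizontal axis) of the 4 members in each of the 8 lines (vertical axis), with CSC, BaP and NNK in colour and marker, bars for the 95% interval, and filled symbols where the adjusted p of limma-voom was below 0.05. TIPARP symbols are filled in every line, AHRR symbols are filled for CSC in 8 lines, BaP in 7 and NNK in 3, and the AHR and ARNT symbols are open around 0.

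AHRR rested on far fewer reads within lines, and was called higher in 8 of 8 lines with CSC, 7 of 8 with BaP and 3 of 8 with NNK, although all 24 estimates were above 0. Of all tested genes, 9.10% to 25.0% were called within a line with CSC, 4.72% to 18.6% with BaP and 5.42% to 18.2% with NNK. In GFP cells each DMSO sample had 1 AHRR read, and its levels were 0.779, 0.969 and 0.984 CPM with DMSO, 14.1, 17.4 and 18.5 with CSC, 11.6, 20.7 and 26.6 with BaP and 5.73, 7.71 and 8.76 with NNK. The summed reads relative to depth were 18.5 (6.02 to 92.4) times those with DMSO for CSC, 20.3 (6.42 to 103) times for BaP and 8.44 (2.28 to 46.6) times for NNK, with exact 95% intervals in parentheses that cover counting error only. The fitted log2 fold changes were 3.62 ± 0.67 with CSC, 3.68 ± 0.70 with BaP and 2.62 ± 0.75 with NNK (adjusted p = 2.36e-05, 0.000208 and 0.00788), and the sample groups did not overlap. FAT1 cells had 1.75, 3.11 and 3.77 CPM with DMSO, 16.8, 20.2 and 38.1 with CSC, 28.5, 31.4 and 37.7 with BaP and 6.33, 7.30 and 7.53 with NNK, the highest means of any line with CSC and BaP. Their NNK samples also lay above those with DMSO, and the changes were 2.91 ± 0.50 with CSC, 3.27 ± 0.47 with BaP and 1.26 ± 0.59 with NNK (adjusted p = 2.99e-06, 4.76e-07 and 0.169), so that NNK was not called. CDKN2A cells had 0.871, 1.04 and 5.32 CPM with DMSO, 9.93, 11.2 and 20.6 with CSC, 14.0, 23.4 and 24.8 with BaP and 9.76, 12.4 and 17.0 with NNK. Changes of 2.76 ± 0.62 with CSC, 3.24 ± 0.59 with BaP and 2.43 ± 0.59 with NNK were called for all 3 chemicals (adjusted p = 0.000453, 1.01e-05 and 0.00570). The NNK call was lost without CDKN2A DMSO replicate 1 (1.98, adjusted p = 0.111) or replicate 2 (2.18, adjusted p = 0.0527), and under the DESeq2 Wald test the NNK calls were lost in CDKN2A cells (2.38, adjusted p = 0.0844) and in GFP cells (3.06, adjusted p = 0.0872). The call in GFP cells with NNK was also lost after the GC and length correction (2.25).

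In HCRED cells AHRR was 0, 1.44 and 5.18 CPM with DMSO, 15.0, 16.0 and 19.4 with CSC, 15.5, 19.3 and 23.2 with BaP and 1.41, 4.58 and 6.85 with NNK. CSC and BaP samples stood above all DMSO samples and were called, while NNK overlapped DMSO, with changes of 3.21 ± 0.66 with CSC, 3.30 ± 0.64 with BaP and 1.25 ± 0.82 with NNK (adjusted p = 0.000116, 8.25e-05 and 0.316). NRF2 cells had 0, 6.13 and 6.16 CPM with DMSO, 17.0, 18.3 and 31.5 with CSC, 22.2, 30.7 and 34.0 with BaP and 4.14, 5.95 and 8.38 with NNK, and here too only the NNK samples overlapped DMSO. Their changes were 2.91 ± 0.60 with CSC, 3.30 ± 0.59 with BaP and 1.11 ± 0.71 with NNK (adjusted p = 0.00021, 4.32e-05 and 0.364), of which CSC and BaP were called. FGFR1 cells had 1.99, 3.92 and 9.18 CPM with DMSO, 18.2 and 27.8 with CSC, 20.8, 34.1 and 39.7 with BaP and 10.5, 11.8 and 13.6 with NNK, the highest DMSO mean of any line, and all samples with a chemical lay above it. Changes of 2.11 ± 0.45 with CSC, 2.5 ± 0.45 with BaP and 1.35 ± 0.48 with NNK were called for CSC and BaP (adjusted p = 0.000331, 0.000105 and 0.0742), the CSC call being lost without a filter on low counts (2.13). NRG1 cells had 1.21, 3.38 and 4.49 CPM with DMSO, 9.30, 12.1 and 16.2 with CSC, 13.5, 17.0 and 20.8 with BaP and 7.51, 8.60 and 9.36 with NNK. The chemical-treated samples did not overlap DMSO, and the changes of 1.94 ± 0.55 with CSC, 2.26 ± 0.52 with BaP and 1.36 ± 0.59 with NNK were called for CSC and BaP (adjusted p = 0.00828, 0.00413 and 0.154), the CSC call being lost under the DESeq2 Wald test (2.01, adjusted p = 0.104).

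PIK3CA cells had the lowest AHRR means with CSC and BaP, at 0.689, 2.0 and 3.75 CPM with DMSO, 3.8, 8.35 and 9.79 with CSC, 3.03, 9.03 and 9.90 with BaP and 4.38, 7.90 and 15.1 with NNK. Only the BaP samples overlapped those with DMSO. The changes were 1.98 ± 0.61 with CSC, 1.74 ± 0.66 with BaP and 1.79 ± 0.62 with NNK (adjusted p = 0.0121, 0.0756 and 0.0498), called for CSC and, just below the threshold, for NNK. Both calls of AHRR in this line depended on single samples. The BaP change was called without BaP replicate 1 (2.34, adjusted p = 0.0165), and the CSC call was lost without CSC replicate 3 (1.71, adjusted p = 0.0747), without DMSO replicate 2 (1.30, adjusted p = 0.168) or under the DESeq2 Wald test (1.89, adjusted p = 0.140). The NNK call was lost without any 1 of the 3 DMSO replicates (1.90, 1.13 and 2.25, adjusted p = 0.0911, 0.347 and 0.0652), without NNK replicate 1 (1.66, adjusted p = 0.0685) or replicate 3 (1.58, adjusted p = 0.147), and under the DESeq2 Wald test (2.06, adjusted p = 0.202).

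By limma without the GC and length correction, AHR and ARNT were called in 0 of 8 lines with each chemical. The shares of all genes called in each line are those given above. AHR estimates on the log2 scale ran from -0.21 to 0.16 with CSC, -0.15 to 0.07 with BaP and -0.17 to 0.10 with NNK. The AHR sample groups overlapped in every line with BaP, and stood apart, lower, with CSC in GFP cells (178, 191 and 203 CPM against 204, 208 and 214 with DMSO) and FGFR1 cells (139 and 170.0 against 172, 175 and 205) and with NNK in FAT1 cells (168, 173 and 174 against 186, 189.8 and 207). ARNT estimates ran from -0.20 to 0.10 with CSC, -0.33 to 0.30 with BaP and -0.22 to 0.20 with NNK. Its groups stood apart, lower, with CSC in NRF2 cells (53.4, 60.1 and 61.1 CPM against 62.6, 69.9 and 73.3 with DMSO) and with BaP in NRG1 cells (58.4, 64.0 and 66.0 against 68.7, 85.0 and 86.1), and overlapped in all others. None of these 5 separations passed the limma test. Over all tested genes and the 8 lines, groups stood apart, lower, in 16.6% of tests with CSC, 14.8% with BaP and 14.3% with NNK, and higher in 15.6%, 12.8% and 12.7%. With the GC and length correction, limma calls included AHR, higher, with CSC in HCRED (0.31, adjusted p = 0.0409) and NRG1 cells (0.39, adjusted p = 0.0173). They also included AHR with NNK in HCRED cells (0.39, adjusted p = 0.0482). With the replicate number added as a block, the limma calls also included ARNT, higher, with BaP in GFP cells (0.48, adjusted p = 0.0259). AHR was then called higher with BaP in FAT1 (0.34, adjusted p = 0.0124) and NRG1 cells (0.36, adjusted p = 0.0127). The shares of all genes called in these corrected fits within lines are not given here.

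Whether a response differed among lines was tested as an interaction of chemical and genotype over all 95 samples, a term called in 0.813% of genes for CSC, 0.202% for BaP and 0.0626% for NNK. No member was called. TIPARP came nearest, with adjusted p = 0.136 for CSC, 0.0635 for BaP and 0.624 for NNK, and its BaP interaction was called under edgeR's quasi-likelihood test (adjusted p = 0.0204), with the replicate number as a block (0.0343) and with the GC and length correction together with the block (0.0352). AHRR had adjusted p = 0.814, 0.981 and 1.0 for CSC, BaP and NNK. The larger and smaller within-line estimates above are therefore not shown to differ between lines by this limma fit without the block.

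Each perturbed line was then compared with its control line under DMSO, to ask whether the genotype alone moved the members. TIPARP in CDKN2A knockout cells was the only call among the 24 tests of 4 genes in 6 lines. It was 156, 160.4 and 176 CPM in CDKN2A cells against 105, 107 and 109.9 in GFP cells, with no overlap, and the log2 fold change was 0.61 ± 0.11 (SE, limma adjusted p = 4.4e-06). In this comparison 37.2% of genes were called, a share to hold beside that result. The other lines had TIPARP estimates from -0.24 (NRF2) to 0.06 (PIK3CA). In those comparisons 26.3% of genes were called for FAT1, 7.16% for NRF2, 1.86% for FGFR1, 2.04% for NRG1 and 8.60% for PIK3CA.

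AHR was lowest in PIK3CA cells under all 4 treatments. With DMSO it was 157, 164 and 167 CPM in PIK3CA cells against 168, 193 and 233 in HCRED cells, with no overlap, and the log2 difference of -0.30 ± 0.10 (SE) missed the threshold (adjusted p = 0.0517) but passed it without HCRED DMSO replicate 2 (-0.39, adjusted p = 0.00972). The other AHR estimates lay between -0.22 (NRG1) and 0.07 (CDKN2A). ARNT estimates lay between -0.23 (PIK3CA) and 0.28 (FAT1), and that of FAT1 was called without FAT1 DMSO replicate 2 (0.39, adjusted p = 0.0484). AHRR estimates were all above 0, from 0.11 (PIK3CA) to 1.36 (FGFR1), on counts of 3 to 16 reads per line, and none was called. Its groups stood apart, higher, in FAT1 cells (1.75 to 3.77 CPM against 0.779 to 0.984 in GFP cells). How often genes in general stood apart between lines was not counted. The lack of overlap here, for AHR in PIK3CA cells and for TIPARP in CDKN2A cells is therefore only described.

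**Figure D3:**
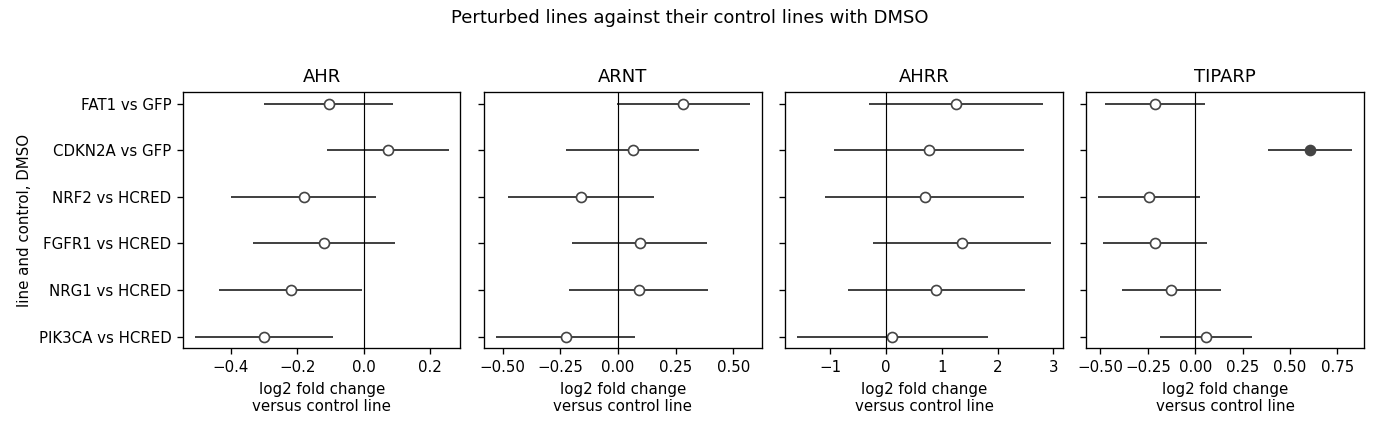
Log2 fold change of each perturbed line from its control line with DMSO (horizontal axis) for the 4 members, with the 6 lines along the vertical axis, bars for the 95% interval and filled symbols for an adjusted p below 0.05. TIPARP in CDKN2A cells, at 0.61, has the only filled symbol, and the AHRR intervals are the widest.

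With all 4 treatments of both lines in 1 model, which has 4 times as many samples per line, 11 of the 24 tests were called, where 48.9% of genes were called for FAT1, 57.6% for CDKN2A, 21.6% for NRF2, 13.5% for FGFR1, 10.8% for NRG1 and 27.8% for PIK3CA. AHR was lower in PIK3CA (log2 -0.39 ± 0.05 SE, adjusted p = 9.27e-09), NRF2 (-0.27 ± 0.06, adjusted p = 0.000226) and FGFR1 cells (-0.23 ± 0.06, adjusted p = 0.00401), and higher in CDKN2A cells (0.14 ± 0.06, adjusted p = 0.0329). ARNT was lower in PIK3CA (-0.27 ± 0.08, adjusted p = 0.00662) and NRF2 cells (-0.26 ± 0.08, adjusted p = 0.0142). AHRR was higher in FAT1 (0.65 ± 0.19, adjusted p = 0.00294), NRF2 (0.58 ± 0.20, adjusted p = 0.0240) and FGFR1 cells (0.60 ± 0.20, adjusted p = 0.0271). In PIK3CA cells AHRR was lower in this model (-0.80 ± 0.26, adjusted p = 0.0140), against an estimate of 0.11 with DMSO alone. TIPARP was higher in CDKN2A cells (0.48 ± 0.05, adjusted p = 7.61e-12). NRG1 cells had no member called.

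The rest of the AhR pathway was taken from fixed lists and tested in the same limma models over all lines. Of 14 other AhR targets 13 had enough reads to test, and 11 were higher and 1 lower with CSC, 11 and 1 with BaP and 10 and 1 with NNK, with median log2 fold changes of 1.17, 1.01 and 0.64 against medians of all genes between 0.00 and 0.01. Called in either direction were thus 12, 12 and 11 of the 13, where 55.1%, 51.0% and 51.8% of all tested genes were called with CSC, BaP and NNK. CYP1A1 rose by 5.66, 5.63 and 3.06 with CSC, BaP and NNK on the log2 scale, and CYP1B1 by 3.37, 3.24 and 1.62. CYP1A2 could not be tested, with 0 reads in all DMSO samples and at most 6 in any other. ALDH3A1, an aldehyde dehydrogenase, rose by 2.06, 2.28 and 1.1, and NQO1, a quinone reductase, by 1.37, 1.05 and 0.39. SLC7A5, an amino acid transporter, rose by 1.0, 0.59 and 0.64, EREG, an EGF receptor ligand, by 1.17, 0.83 and 0.66, and HES1, a Notch-pathway repressor, by 0.93, 0.84 and 0.65. NFE2L2, the gene of NRF2, was lower by -0.21, -0.13 and -0.24, calls that were lost after that GC and length correction (-0.01, 0.09 and -0.07, with the sign turned for BaP). With that correction 12, 11 and 9 targets were higher and none lower, where 35.0%, 26.8% and 19.2% of genes were called. In these corrected fits, used for the lists below as well, the median of all genes was 0.05, 0.05 and 0.04.

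**Figure D4:**
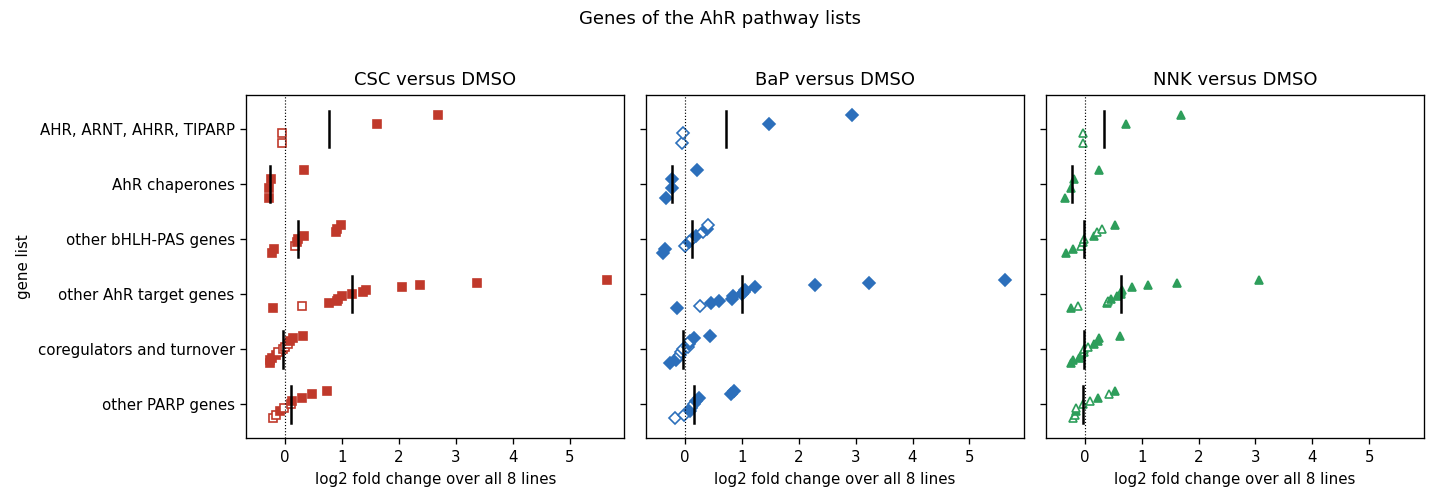
Log2 fold change from DMSO over all 8 lines (horizontal axis) of the members and of the tested genes of 5 pathway lists, with 4 genes shown for the chaperones (vertical axis), in 1 panel for each of CSC, BaP and NNK, without the GC and length correction, with filled symbols for an adjusted p below 0.05 and black lines at the medians of the genes shown. The AhR targets have the highest medians (1.17, 1.01 and 0.64) and reach up to 5.66 with CSC, while the medians of the coregulators and turnover genes and of the other PARP genes lie between -0.04 and 0.16.

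Of the cytosolic partners of AhR, 4 genes are described here, of which 3 were lower and 1 higher with each chemical. All 4 were called, beside 55.1%, 51.0% and 51.8% of all tested genes with CSC, BaP and NNK. The chaperone genes HSP90AA1 (-0.27, -0.33 and -0.34), HSP90AB1 (-0.29, -0.22 and -0.19) and PTGES3 (-0.24, -0.23 and -0.25) were lower, and remained called lower after the GC and length correction. Those corrected fits called 35.0%, 26.8% and 19.2% of genes. SRC, a kinase of the complex, was higher (0.33, 0.22 and 0.24) and was not called after the correction (0.01, -0.10 and -0.09, with the sign turned for BaP and NNK).

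Among 13 other bHLH-PAS genes, the family of AHR and ARNT, 9 could be tested, and 6 were higher and 2 lower with CSC, 3 and 2 with BaP and 2 and 2 with NNK, with medians of 0.22, 0.13 and -0.01. Those are 8, 5 and 4 of 9 called, beside 55.1%, 51.0% and 51.8% of all genes. ARNT2, the closest relative of ARNT, was higher with CSC (0.90) and NNK (0.53) and had an estimate of 0.13 with BaP. It had few reads, with medians of 4 per sample with DMSO and 7 with CSC, and its NNK call was lost after the GC and length correction (0.41). NPAS2, a partner of the clock, was higher with CSC (0.89) and BaP (0.38). EPAS1, a hypoxia-inducible factor that pairs with ARNT, was higher by 0.33, 0.20 and 0.17, of which only the CSC change was called after the correction (0.20, 0.08 and 0.02). HIF1A, another such factor, was higher with CSC (0.22) and BaP (0.08) and had an estimate of -0.02 with NNK that turned to 0.26 after the correction. ARNTL, a clock gene, was higher with CSC (0.20), and ARNTL2 was lower by -0.19, -0.35 and -0.21. Neither could be given a GC content. CLOCK was lower by -0.22, -0.38 and -0.33, which after the correction was 0.09, -0.09 and -0.07 and turned its sign with CSC. With the correction, 7 genes were tested, and 6, 2 and 1 were higher and none lower.

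Coregulators and turnover genes of AhR had medians near 0 (-0.04, -0.03 and 0.00), with 3 higher and 4 lower of 11 with CSC, 3 and 3 with BaP and 4 and 4 with NNK. The calls were 7, 6 and 8 of 11, beside 55.1%, 51.0% and 51.8% of all genes. DDB1, a ubiquitin ligase subunit, was higher by 0.14, 0.16 and 0.16, and the coactivator NCOA2 was lower by -0.27 with CSC. STUB1, a ubiquitin ligase, was higher by 0.32, 0.44 and 0.61, which after the correction turned to -0.20 with CSC and -0.06 with BaP. With NNK it was then 0.14 and no longer called. SMARCA4, a chromatin remodeller, was higher by 0.08, 0.08 and 0.24 and turned to -0.19, -0.15 and -0.06. RB1 was lower by -0.23, -0.25 and -0.20 and turned to 0.12, 0.03 and 0.11. CUL4B, a cullin, was lower by -0.27, -0.14 and -0.24 and turned to 0.02 with CSC and 0.18 with BaP, with the NNK call lost (-0.01). MED1, a Mediator subunit, was lower by -0.16, -0.15 and -0.10, with the sign turned for BaP and NNK and the CSC call lost (-0.01). CREBBP was higher with NNK alone (0.24, a call lost after the correction at 0.06), and NCOA3 lower with NNK alone (-0.07, which turned to 0.11). With the correction, 3, 4 and 4 were higher and 2, 1 and 0 lower, so this list shows no direction that is kept by both scalings.

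Other PARP genes of the mono-ADP-ribosyltransferase kind, the relatives of TIPARP, had smaller estimates than TIPARP. Of 10 genes 9 could be tested, with 4 higher and 1 lower with CSC, 6 and 0 with BaP and 2 and 1 with NNK, and medians of 0.10, 0.16 and -0.03. In all 5, 6 and 3 of 9 were called, against 55.1%, 51.0% and 51.8% of all genes. The largest estimates among the named genes were those of PARP10 (0.47, 0.81 and 0.53). After the correction PARP10 was -0.02 with CSC and 0.07 with NNK, and neither was called. PARP12 was higher with CSC (0.29) and BaP (0.20), PARP6 with BaP (0.26) and NNK (0.24), and PARP4 with CSC and BaP (0.11 each). PARP14 was lower with CSC (-0.09) and NNK (-0.16) and higher with BaP (0.09), and both lower values turned with the correction (0.14 and 0.03). With it, 4, 7 and 2 were higher and none lower. These lists and the members were compared with DMSO samples that all 3 chemicals share.

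Over the 32 group means of log2 CPM, the genes whose pattern was most like that of AHRR were CYP1A1 (Pearson r = 0.93), CYP1B1 (0.90) and EDC3 (0.86), among the 10062 genes whose mean count reached 10. For TIPARP they were CYP1B1 (0.94), CYP1A1 (0.92) and TPRA1 (0.89). AHR was most like POF1B (0.86), RNF128 (0.82) and ZNF652 (0.81), and ARNT most like PCMTD2 (0.82), NREP (0.81) and EIF2AK1 (0.80). Between members, r was 0.85 for AHRR with TIPARP, 0.54 for AHR with ARNT, and between -0.13 and 0.07 for the other pairs. These are descriptions across group means that share lines, treatments and DMSO controls.

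**Figure D5:**
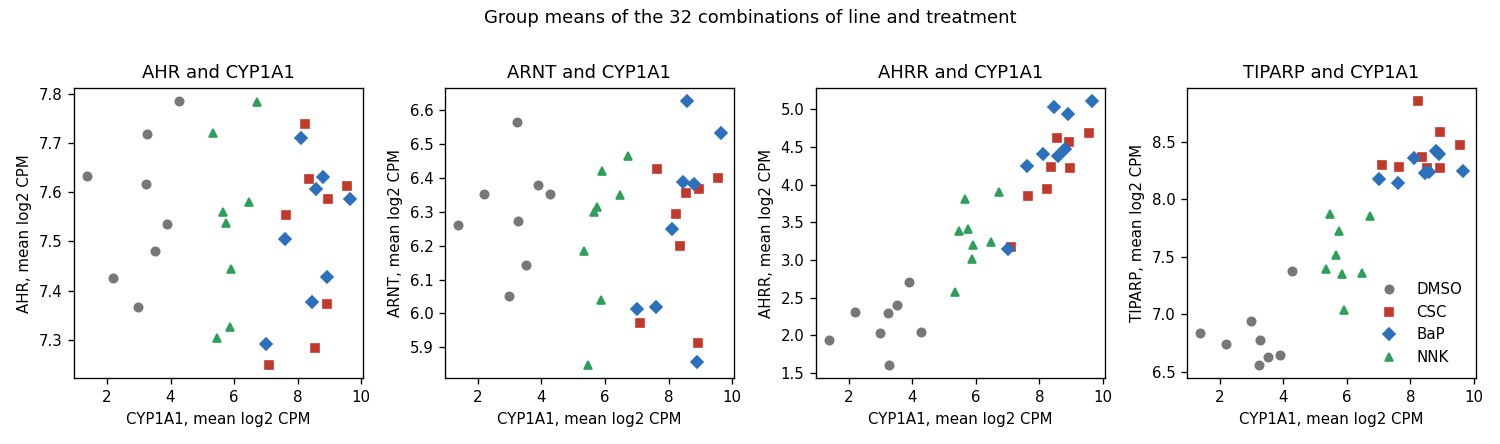
Mean log2 CPM of each member (vertical axis) against that of CYP1A1 (horizontal axis) in the 32 combinations of line and treatment, with 1 point per combination and the treatment in colour and marker. AHRR (r = 0.93) and TIPARP (r = 0.92) climb with CYP1A1 from the DMSO points through NNK to CSC and BaP, while AHR and ARNT, on narrower axes that do not start at 0, show no such climb.

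Genes that overlap the members could share their reads. AHRR shares 5561 exon bases with the readthrough gene PDCD6-AHRR, which has no row of its own in the files, so reads of the readthrough and of AHRR cannot be told apart. PDCD6, the upstream gene of that readthrough, changed by 0.36 with CSC (adjusted p = 1.93e-06), 0.22 with BaP (adjusted p = 0.00397) and 0.08 with NNK (adjusted p = 0.365). Its median was 46.3 CPM with DMSO, 61.9 with CSC, 53.8 with BaP and 50.7 with NNK. The part of readthrough reads in the AHRR changes was not tested. TIPARP-AS1 runs on the opposite strand at the start of TIPARP and shares 0 exon bases with it. It had 0 to 3 reads per DMSO sample and at most 8 in any other sample, and was higher with CSC (0.78, adjusted p = 0.0285) and BaP (1.30, adjusted p = 0.000125), while NNK gave 0.67 (adjusted p = 0.0714). The strand setting of the counting is not given in the sources used here, and whether reads of 1 were counted for the other was not tested.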

How the data were processed

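RNA of 95 AALE samples was profiled by SFL sequencing as single 75 base reads. Per the submitters' processing notes and the paper's methods, the authors trimmed reads with cutadapt 1.12, checked them with FastQC 0.11.5, aligned them to hg19 with STAR 2.5.2b and counted them in RefSeq genes with featureCounts (Subread). They deposited whole-number counts per gene, without normalization. The strand setting is not given in the sources used here. Groups were taken from the sample labels.

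Counts were normalized with TMM (edgeR 4.0.16, R 4.3.3) and voom-transformed, and groups were compared in limma 3.58.1 for genes averaging over 1 count per fitted sample. Comparisons over all lines used 1 fit of all samples with genotype, and within-line and genotype comparisons used only the samples compared. P-values are 2-sided, adjusted by Benjamini-Hochberg over all genes tested, and a gene was called at an adjusted p below 0.05. Log2 CPM used a prior count of 2. The tests were first tested on simulated data. A level of 3 counts corresponds to 1.42 to 10.4 CPM, and intervals of summed reads cover counting error only. GC content and exon length came from GENCODE models on GRCh37, which matched 86.9% of symbols, and their loess trend (span 0.3) was removed in an alternative. Promoter windows came from RefSeq.

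The members and lists were chosen with earlier results of these data known. List genes are named where they passed the threshold in a comparison over all lines with DMSO and averaged 10 or more counts over the 95 samples, and CYP1A1, CYP1A2, CYP1B1, ARNT2 and HSP90AB1 always, and 1 gene of the lists is not reported here. The 3 genes most like each member were named by Pearson correlation. The alternatives tried were the quasi-likelihood test of edgeR, the Wald test or size factors of DESeq2 1.42.0, other low-count filters, the replicate number as a block, the GC and length correction, and leaving out samples, replicate numbers or lines. The scalings of list genes were added after seeing the data.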

Additional observations from a re-analysis of the deposited data

Results flagged for a closer look

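Genes of the AhR pathway lists whose change differed between the 8 lines, by the limma-voom interaction of chemical and genotype over all genes, are given by their adjusted p. For CSC these were CYP1B1 (5.23e-09), SLC7A5 (5.53e-05), CYP1A1 (0.000323) and the chaperone gene HSP90AB1 (0.00134). For BaP they were CYP1B1 (5.86e-06), NQO1 (0.000634), SLC7A5 (0.00643) and CYP1A1 (0.0270). No list gene was called for NNK, and AHR, ARNT, AHRR and TIPARP were called for none of the 3 chemicals. Groups of 3 samples were not tested for outlying samples.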

How the results depend on the processing

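TIPARP and AHRR kept their direction and their call against DMSO over all lines under all 20 alternatives of each chemical. The counts of called genes moved more. With the GC and length correction (values in parentheses add the replicate block) the genes called fell from 7922 to 4718 (4702) with CSC, from 7337 to 3616 (3643) with BaP and from 7455 to 2584 (2582) with NNK, and with no filter on low counts they were 12546 with BaP and 12582 with NNK. The AHR changes of 0.20, 0.20 and 0.19 (0.20, 0.20 and 0.19) after that correction, called higher, stand against estimates below 0 without it. TIPARP between CSC and BaP was called under edgeR (0.14), a mean count of at least 10 (0.14), the correction (0.15, and 0.15 with the block), the DESeq2 Wald test (0.15), without the HCRED line (0.17), without the FGFR1 line (0.15) and with only the 2 treatments (0.14). Leaving out 1 replicate number, the genes called were 1322 to 1790 between CSC and BaP, 2234 to 2435 between CSC and NNK and 956 to 1177 between BaP and NNK.

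Interactions with genotype were called for 117 genes with CSC (185 with only the 2 treatments, 30 to 58 without 1 replicate number), 29 with BaP (56 under edgeR, 48 with the block, 11 to 26 without 1 replicate number) and 9 with NNK (25 under edgeR, 16 with the block, 14 with the correction, 14 with both, 25 with only the 2 treatments, 4 to 18 without 1 replicate number). The BaP interaction of TIPARP was called under edgeR (adjusted p = 0.0204), the block (0.0343) and the correction with the block (0.0352). The 11 within-line calls of members with NNK fell to 7 under the DESeq2 Wald test. The 1 call against a control line with DMSO became 2 under edgeR, DESeq2 size factors, a mean count of at least 10 or the block, 4 with the correction alone or with the block, 11 with all 4 treatments (where AHRR in PIK3CA cells turned to -0.80) and 1 to 2 without 1 sample. AHR with CSC in HCRED cells turned to 0.31 with the correction and 0.33 with the block added, called higher by limma (adjusted p = 0.0409 and 0.00877).

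Samples that share a replicate number correlated between -0.0683 and 0.175 in their deviations, and no comparison of 30 had all pairs above 0.1. The numbers were therefore not taken as pairs in the limma fits without the block. Counting error lowers such correlations, so they cannot exclude a pairing. The GC and length correction also turned the sign of some list genes, given here where the gene was called with or without it. With CSC the values were CLOCK 0.0901, SMARCA4 -0.19, RB1 0.12, CUL4B 0.0183, STUB1 -0.20, PARP8 0.30, PARP10 -0.0166 and PARP14 0.14. With BaP they were SRC -0.10, NFE2L2 0.0865, NCOA3 0.16, MED1 0.00032, SMARCA4 -0.15, RB1 0.0344, CUL4B 0.18, STUB1 -0.0558 and PARP8 0.27. With NNK they were SRC -0.0921, HIF1A 0.26, NCOA3 0.11, MED1 0.0317, SMARCA4 -0.0609, RB1 0.11, PARP4 0.12 and PARP14 0.0295. DESeq2 size factors left the list counts as they were except 1 more coregulator higher with BaP. The cause of these changes was not tested. Without 1 CSC sample, FGFR1 had 1 left, which was assumed to vary like the other group. AHRR rests on 0 to 10 reads per DMSO sample, so its folds are imprecise.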
